A study of Homo sapiens with 3 samples.

Results

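To examine where RUNX2 and its partner CBFB met at gene starts, the shared RUNX2-CBFB peaks at transcription start sites were described in SAOS2 cells, an established human osteosarcoma (OS) cell line that was left untreated. ChIP-seq had been done with a custom-made RUNX2 antibody and with a commercial CBFB antibody, with 1 library each, and all values below come from these 2 peak lists. The Input library was not analysed here. Members were selected on the peak calls of both lists: a RUNX2 peak that shared 1 bp or more with a CBFB peak and whose midpoint lay within 1 kb of an annotated transcription start site (TSS) on chromosomes 1 to 22 or X. A total of 2469 peaks met this rule. They were 26.4% (25.5 to 27.3) of the 9354 shared RUNX2 peaks and 24.9% of the 9926 RUNX2 peaks on these chromosomes. The study itself counted fewer RUNX2 peaks as overlapping CBFB peaks, and how it defined overlap is not given in the sources used here. The other shared peaks lay in gene bodies (4598 peaks) or between genes (2287 peaks). Intervals in parentheses after a share are exact 95% intervals, or Newcombe intervals where a difference of shares is given, and they cover counting error only. Peaks are not replicates, so no p-value is given. The lists hold no expression values, so the identity of the cells could not be checked against marker genes, and the depth of the libraries is unknown. The line is a tumour line with an abnormal genome, and the number of copies of each region was not measured.

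RUNX2 is a transcription factor of the Runt family that is needed for the formation of osteoblasts. Its Runt domain contacts a short DNA core, and CBFB, which does not contact DNA itself, holds the complex on it. RUNX1 and RUNX3 use the same partner and the same core. A TSS is the place where an annotated transcript begins. Many start sites of widely expressed genes lie in stretches rich in CpG dinucleotides, where ETS factors and SP-type zinc finger proteins often have sites.

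The sequences below show what the members looked like at base level. The RUNX core was searched for as TGTGGT on both strands. Where a peak is said to hold no core, it has no exact match to these letters. The first 8 stretches are those of the highest-scoring members at protein-coding genes that held the core within 100 bp of the peak midpoint, and the capitals mark every copy of the core. The last pair, at DSTYK and ASPSCR1, are the top members at coding genes without it, printed around the midpoint and with no capitals. All are from the GRCh37 reference (hg19), 5′ to 3′.
ENSG00000289761: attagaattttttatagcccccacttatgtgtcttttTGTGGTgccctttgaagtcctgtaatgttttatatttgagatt
RUNX2: cactTGTGGTtcTGTGGTtgtttgtgaggc
CCNI: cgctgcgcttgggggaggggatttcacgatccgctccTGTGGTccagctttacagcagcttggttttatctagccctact
PPFIBP2: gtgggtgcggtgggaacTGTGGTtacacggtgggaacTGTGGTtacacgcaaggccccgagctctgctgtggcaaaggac
CYP51A1: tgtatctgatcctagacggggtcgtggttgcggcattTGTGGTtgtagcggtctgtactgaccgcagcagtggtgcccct
PRR5L: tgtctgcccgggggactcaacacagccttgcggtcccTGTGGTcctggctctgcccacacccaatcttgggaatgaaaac
LRRC71: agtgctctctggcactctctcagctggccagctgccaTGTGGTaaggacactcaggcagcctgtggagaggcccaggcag
PRCC: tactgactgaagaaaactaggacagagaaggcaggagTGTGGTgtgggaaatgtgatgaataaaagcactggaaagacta
DSTYK: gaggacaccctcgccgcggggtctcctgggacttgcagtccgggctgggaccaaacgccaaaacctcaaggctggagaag
ASPSCR1: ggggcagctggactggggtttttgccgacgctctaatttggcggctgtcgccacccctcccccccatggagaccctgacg

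These stretches lie at chr4:41145622-41145701 (minus strand printed) for ENSG00000289761, chr6:45296071-45296100 (minus) for RUNX2, chr4:77997539-77997618 (plus) for CCNI and chr11:7597462-7597541 (minus) for PPFIBP2. CYP51A1 is at chr7:91763146-91763225 (minus), PRR5L at chr11:36477427-36477506 (plus), LRRC71 at chr1:156896174-156896253 (minus) and PRCC at chr1:156765523-156765602 (minus). DSTYK is at chr1:205180893-205180972 (plus) and ASPSCR1 at chr17:79966525-79966604 (plus). The core lay in an exon of some annotated transcript at RUNX2 and CCNI and in an intron at the other 6 members. The transcript is not always one of the named gene. At ENSG00000289761 and CCNI the core lay upstream of the whole annotated gene. At PPFIBP2, LRRC71 and PRCC it was upstream of the nearest start, an internal one, but inside the span of the gene. RUNX2 and PPFIBP2 carried the core in tandem. At RUNX2 the nearest core was 1 bp from the peak midpoint, and at ENSG00000289761 its centre fell on it.

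The members were then sorted by the gene at the nearest start site. This gene was protein-coding for 1789 members (72.5%, 70.7 to 74.2), a long non-coding RNA (lncRNA) gene for 516 (20.9%), a small RNA gene for 73, a pseudogene for 69 and of another class for 22. A protein-coding start lay within reach of 1966 members (79.6%). Start sites of more than 1 gene were in reach of 744 members (30.1%), and 595 members (24.1%) lay at divergent starts, where genes are read away from each other. For 244 of these, both genes were protein-coding. At such peaks the nearest gene is a label, not a target.

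Counted by gene, 3142 of 63827 annotated genes had a member within 1 kb of a start site, or 4.92%. The share was highest among protein-coding genes, with 2152 of 20098 genes or 10.7% (10.3 to 11.1). It was 4.03% of lncRNA genes (750 of 18592), 1.32% of small RNA genes (112 of 8458) and 0.620% of pseudogenes (93 of 15000). A CBFB peak of any kind had its midpoint within 1 kb of a start of 5782 coding genes (28.8%), and 2124 of these (36.7%) had a member. Most coding genes with a member had 1 (2030 genes), 108 had 2, 11 had 3, 1 had 4 and 2 had 5. Coding genes with a divergent coding neighbour had a member more often than the others, with 282 of 1703 (16.6%, 14.8 to 18.4) against 10.2% (difference 6.39 points, 4.65 to 8.28). The outermost starts of such neighbours are within 1 kb of each other, so 1 peak can count for both genes. This way of counting favours a higher share, and the interval treats the paired genes as separate.

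Not all of these starts lay at the outermost annotated start of a gene, which need not be the start used most. Use of the starts was not measured. Among the 1789 members at coding genes, 1124 (62.8%) were at a start within 1 kb of the outermost start of the gene, and 665 (37.2%) were at an internal start further inside, where a shorter transcript is annotated.

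Next, the offset of each RUNX2 midpoint from the nearest start was measured along the direction of the gene, with negative values upstream. The midpoints clustered tightly at the start, although the rule admitted 1 kb to either side. The median distance was 153 bp, with quartiles of 51 and 393 bp. A total of 959 members (38.8%) lay within 100 bp, 1412 (57.2%) within 200 bp and 2015 (81.6%) within 500 bp. The bins from 100 bp upstream to the start and from the start to 100 bp downstream held 19.4% of the members each, while the outermost bins held 1.54% and 1.46%. The start site lay inside the RUNX2 peak in 2013 members (81.5%) and inside the CBFB peak in 2245 (90.9%). Members at outermost coding starts were closer than those at internal starts: 69.4% against 46.9% lay within 200 bp (difference 22.5 points, 17.8 to 27.1). The midpoint was in an exon in 40.8%, in an intron in 38.8% and outside transcripts in 20.3% of the members.

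The members lay about evenly upstream and downstream. Upstream were 1289 (52.2%, 50.2 to 54.2), downstream 1162, and 18 fell on the start base itself. The share was between 50.5% and 56.4% in 7 of 9 alternatives. It was 45.4% when only the outermost start of each gene was used, and 49.4% with the midpoint of the CBFB partner in place of the RUNX2 midpoint. The side also depended on the strand of the gene. At genes on the plus strand 613 of 1329 members lay upstream (46.1%, 43.4 to 48.8), with a median offset of 6 bp. At genes on the minus strand 676 of 1140 did (59.3%, 56.4 to 62.2), with a median of -36 bp. The difference was 13.2 points (9.24 to 17.1). At outermost coding starts alone it was 14.9 points (9.08 to 20.6). With the CBFB midpoint the shares were 51.2% and 52.0%. At genes of either strand, the RUNX2 midpoints thus lay further toward higher genome coordinates than the CBFB midpoints did.

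**Figure D1:**
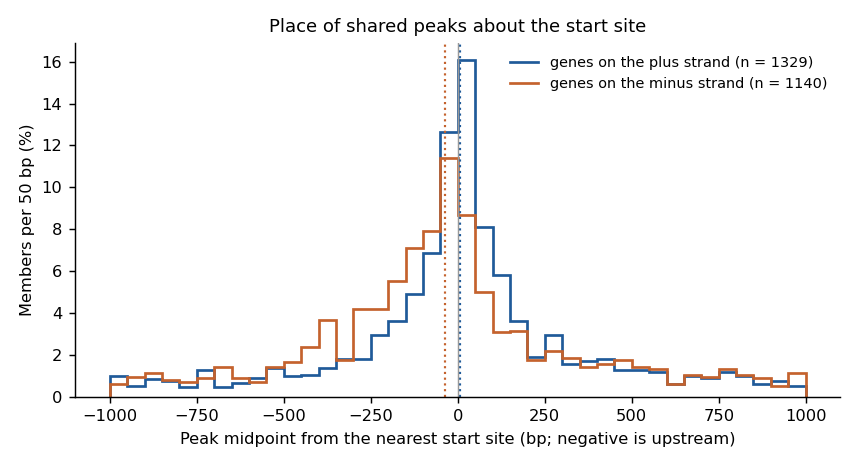
Share of members in bins of 50 bp by the offset of the RUNX2 peak midpoint from the nearest start site (x axis, bp), for the 1329 members at plus-strand and the 1140 at minus-strand genes. Dotted lines mark the medians, at 6 and -36 bp.

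The values beside the 1 kb limit were ordinary. Just inside it were peaks at TPRA1 (offset -1000 bp, RUNX2 score 66.86, CBFB score 151.03), SNAP47 (-999 bp, 115.92 and 666.53) and ANKRD55 (-998 bp, 84.23 and 235.74). Just outside were GLI2 (1001 bp, 106.81 and 247.14), THADA (-1007 bp, 90.24 and 266.3) and HES7 (1008 bp, 155.71 and 408.28). The last 100 bp inside the limit held 74 members, and the first 100 bp outside it held 61 shared peaks. The members with the smallest overlap shared 47 bp (ZNF33A), 55 bp (MAT2B) and 63 bp (PPP2R1A) with a CBFB peak.

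The peak score of the caller, which was at least 50 and at most 3100 in both lists, was then compared. Levels were not compared between lists, since such scores move with depth, but each score was also ranked within its own list as a percentile. The RUNX2 scores of the members were typical of the list, with a median of 86.9 (quartiles 64.4 and 129), at percentile 52.2. The medians were 85.0 for shared peaks in gene bodies and 90.5 between genes. The CBFB partners ranked higher in their own list, with a median score of 248 (147 to 457) at percentile 76.9. The selection favours this: 9354 of 9926 RUNX2 peaks are shared, whereas the partners come from 27190 CBFB peaks, and the best-scoring one is taken. Partners of members ranked below those in gene bodies (293, percentile 81.3) and between genes (301, percentile 81.9). When all shared peaks were divided by RUNX2 score into 5 groups, the share at start sites was 25.4%, 26.7%, 27.7%, 26.8% and 25.4% from the lowest to the highest group. By CBFB score it was 30.2%, 30.3%, 25.2%, 24.7% and 21.6% (19.7 to 23.5 in the highest group). Start sites thus held a smaller part of the strongest CBFB partners, while their share varied little with the RUNX2 score.

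The same was seen within the members by distance. The median CBFB partner score was 226 within 100 bp of the start, 252 further out up to 250 bp, 262 from there up to 500 bp and 318 beyond, whereas the RUNX2 medians were 86.5, 85.1, 90.1 and 88.8. The RUNX2 percentile exceeded that of its CBFB partner in 502 members (20.3%, 18.8 to 22), against 12.3% of shared peaks in gene bodies (difference 8.0 points, 6.17 to 9.87) and 15% of those between genes (5.29 points, 3.12 to 7.45). The share was 23.1% at outermost coding starts, 18.2% at internal ones and 35.6% (26 of 73, 24.7 to 47.7) where a small RNA gene was nearest. Across the 2469 members Spearman's rank correlation of the paired scores was 0.530, given as a description of peaks from the same pair of libraries. It was 0.618 in gene bodies and 0.655 between genes. The members were also less often wholly inside their CBFB partner than shared peaks in gene bodies (78.9% against 83.9%, difference -5.03 points, -6.98 to -3.12), and the midpoints of the paired peaks were a median of 117 bp apart, against 91 bp and 86 bp elsewhere.

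**Figure D2:**
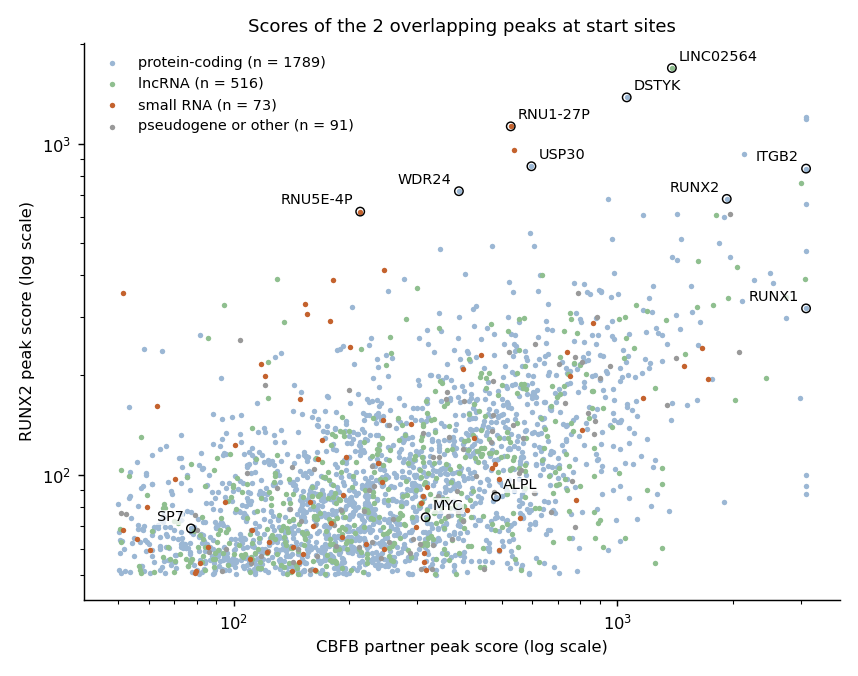
RUNX2 peak score against the score of the CBFB partner (both on log scales) for the 2469 members, coloured by the class of the gene at the nearest start. The small RNA member RNU5E-4P (CBFB score 213.58) and the coding member WDR24 (386.15) lie high in RUNX2 score at CBFB scores within the quartiles of the members, while RUNX1 and ITGB2 lie at the top CBFB score of 3100.

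Among the members at coding genes, DSTYK, a dual serine/threonine and tyrosine kinase gene, had the highest RUNX2 score. Its peak at chr1:205180364-205181501 had a score of 1378.78 and a CBFB score of 1056.86, with the midpoint 103 bp upstream of the gene start. It held 1 core, 450 bp from the midpoint. ASPSCR1, which encodes a tether of the glucose transporter GLUT4, followed with 1200.65 at an internal start 32679 bp from the gene start. One CBFB peak of score 3100 there also covered 2 further member peaks of ASPSCR1, with RUNX2 scores of 99.78 and 87.63, so these 3 members share 1 partner and are not separate CBFB observations. BAIAP2, an adaptor between the membrane and actin, had a member of 1184.74 with a CBFB score of 3100 at a start 47867 bp inside the gene. That peak held 5 cores, the nearest 144 bp from the midpoint. ENSG00000289761, a coding gene without a symbol, had scores of 928.75 and 2141.74.

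The next members differed in how high the CBFB score was. USP30, a mitochondrial deubiquitinase gene, had a RUNX2 score of 854.42 (percentile 99.7) and a CBFB score of 596.62 (percentile 93.7), with no core anywhere in the peak. WDR24, a part of the GATOR2 complex of nutrient sensing, had 718.57 and 386.15 (percentile 87.1), 8 bp upstream of the gene start and also without a core. In contrast, ITGB2, the beta 2 integrin chain of leukocytes, had 840.51 and the top CBFB score of 3100, 43 bp upstream of a start 3116 bp from the gene start. The ITGB2 peak held 1 core, 442 bp from the midpoint. HJV, a BMP co-receptor of iron metabolism, had 680.67 and 945.53, 35 bp downstream of its start and without a core. MYLK, the myosin light chain kinase, had 656.78 and 3100 at an internal start, with 4 cores, the nearest 395 bp from the midpoint. CYP27A1, a sterol hydroxylase, had 612.57 and 1426.38, and ANKS6, a protein of cilia, had 610.16 and 1164.87, both at internal starts and with a core at 104 bp and 120 bp from the midpoint. CYP51A1, the lanosterol demethylase of cholesterol synthesis, joined a RUNX2 score of 473.16 to the top CBFB score, with 5 cores in the peak and the midpoint 646 bp downstream of an annotated start that is itself 326 bp from the outermost one. In all, 9 members had a CBFB score of 3100.

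RUNX genes were themselves among the members. RUNX2 had the member at chr6:45295403-45296767, with a RUNX2 score of 681.08 (percentile 99.5) and a CBFB score of 1926.11 (percentile 99.6). Its midpoint was 18 bp downstream of a start that lies 173 bp from the outermost start of the gene, and the peak held 5 cores, including the tandem pair printed above. RUNX1 had 2 members, and the stronger one had a RUNX2 score of 318.3 and a CBFB score of 3100, with the midpoint exactly on an internal start and 4 cores. RUNX3 had 1 member of 266.2 and 1071.82, 110 bp upstream of the nearest annotated start, with 2 cores. CBFB had none. Together 3 of the 7 genes of the RUNX and core-binding factor list had a member (42.9%, 9.90 to 81.6), an interval that included the 10.7% of all coding genes.

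The genes that the study followed had weaker members than RUNX2 itself. MYC, the oncogenic transcription factor, had a member with a RUNX2 score of 74.58 (percentile 41.1) and a CBFB score of 316.41 (percentile 83.0), 83 bp upstream of an annotated start that is 612 bp from the outermost one. This RUNX2 peak, at chr8:128747505-128748913, touched 2 CBFB peaks and held no core. The CBFB score given is that of the higher-scoring one, at chr8:128748725-128752105. That peak overlaps only the higher-coordinate end of the RUNX2 peak and does not cover its midpoint. ALPL, the alkaline phosphatase of mineralizing bone, had 86.07 and 482.61 (percentile 90.9), 354 bp downstream of an internal start 65081 bp from the gene start, with no core in the peak. SP7, which encodes osterix, the factor that follows RUNX2 in osteoblast formation, had 68.99 and 77.36 (percentiles 34.2 and 27.0), 124 bp upstream of an internal start 8961 bp from the gene start. The SP7 peak held 1 core, 165 bp from the midpoint.

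Non-coding starts gave the highest RUNX2 score of all. LINC02564, a lncRNA gene near the end of chromosome 18, had a RUNX2 score of 1690.7 and a CBFB score of 1385.92. Its peak held 0 cores and 70 copies of the telomere repeat TTAGGG, counted on both strands. The top small RNA members were at copies of spliceosomal RNA genes. RNU1-27P had 1127.37 for RUNX2 and 527.06 for CBFB (percentiles 99.8 and 92.1), RNU1-28P had 954.83 and 538.89, and RNU5E-4P had 623.46 and 213.58 (percentiles 99.3 and 72.2). RNU5E-4P shares its reach with RNU5E-1. GRHL3-AS1, a lncRNA gene that starts near the GRHL3 gene, had 761.11 and 2999.66. Telomere repeats and U1 and U5 RNA genes occur in many near-identical copies, and the handling of reads that match several places is not given in the sources used here, so the position of these members is uncertain.

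The sequence was not used to select the members. The RUNX core was within 100 bp of the midpoint in 25.1% (23.4 to 26.8) of them, against 13.8% (12.7 to 14.8) of windows of the same length taken 2 kb to either side and free of peaks. In shared peaks it was far more common away from starts: 51.5% in gene bodies (difference -26.4 points, -28.6 to -24.2) and 49.0% between genes. Relative to flanks of their own, the share was 1.82 times as high in members, 3.93 times in gene bodies and 3.51 times between genes. The flanks matched the members less well in base composition. Mean G and C content was 59.0% in members and 45.5% in their flanks. It was 47.8% and 44.1% in gene bodies, and 48.2% and 43.9% between genes. The effect of this on the ratios was not tested. Windows of the same length on the outermost start of all coding genes held the core in 8.02%, those of coding genes with a member in 9.76% (8.54 to 11.1) and those of coding genes with no peak midpoint of either list within 1 kb of a start in 7.89%. With the whole RUNX2 peak searched, 1452 members (58.8%) held a core. Members with and without the core had median RUNX2 scores of 85.8 and 87.6 and median CBFB partner scores of 277 and 239 (percentiles 79.9 and 75.8). The core share was 24.3%, 26.1%, 26.2%, 27.1% and 21.7% from the lowest to the highest RUNX2 score group of the members. CBFB-only peaks at start sites held it in 21.8% (20.6 to 23) and RUNX2-only peaks at start sites in 18.7% (13.5 to 24.8).

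The kind of start made a large difference. The core was present in 16.7% (14.6 to 19.0) of members at outermost coding starts, 31.1% at internal coding starts (difference 14.4 points, 10.3 to 18.6) and 31.4% at lncRNA starts. This went with base composition. A window was called CpG-rich when at least 50% of its bases were G or C and the CpG count was at least 0.6 of that expected from them. By this measure 51.2% of the members were CpG-rich, with 72.6% at outermost and 30.5% at internal coding starts, against 2.35% of shared peaks in gene bodies and 3.63% between genes. CpG-rich members held the core in 11.6% and the others in 39.2% (difference -27.5 points, -30.8 to -24.2). CpG-rich members were also nearer to the start, with a median distance of 82 bp against 300 bp. The outermost starts of coding genes with a member were CpG-rich in 74.4%, those of genes with no peak in 52.0% and those with a CBFB peak but no member in 76.0% (74.6 to 77.3).

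Some other motifs differed between starts and the other places. The ETS core CCGGAA, on either strand, was within 100 bp of the midpoint in 15.1% (13.7 to 16.6) of members, 2.63% of shared peaks in gene bodies, 2.10% between genes and 2.22% of the flanks of members. All coding gene starts held it in 16.0%, in windows on the outermost start and not on a RUNX2 midpoint. In windows on the outermost start, coding genes with a member had it in 21.5% and those with no peak in 13.8%. The difference was 7.67 points (5.89 to 9.54). Coding genes with a CBFB peak but no member had it in 20.4%. Members at outermost starts had it in 21.8% and those at internal starts in 9.02%. The GC box GGGCGG was in 34.6% of members, 6.02% of shared peaks in gene bodies and 46.7% of all coding gene starts. On outermost starts it was in 53.3% with a member, 58.4% with a CBFB peak but no member and 42.6% with no peak. The AP-1 site TGANTCA went the other way, with 7.65% (6.64 to 8.77) in members, 14.9% in gene bodies and 16.2% between genes, and 3.91% of all coding gene starts. The TEAD site GGAATG was in 11.7% of members, 16.9% in gene bodies and 7.75% of all coding gene starts. On outermost starts with a member, AP-1 and TEAD sites were in 3.72% and 7.57%, against 4.24% and 7.87% with no peak. NRF1 (3.44% against 0.761%), CRE (5.43% against 2.35%) and E-box motifs (4.82% against 2.74%) were also more common in members than in gene bodies. All coding gene starts held them in 4.18%, 6.99% and 5.88%. Outermost starts with a member held them in 7.06%, 8.27% and 6.32%, and those with no peak in 3.55%, 6.71% and 5.54%. The TATA motif was less common in members (4.33% against 10.4%), with 7.12% at all coding gene starts. Outermost starts with a member held it in 4.32% and those with no peak in 8.43%. The remaining motifs, YY1 and CCAAT, differed less. The YY1 site AAGATGG was in 3.32% of members and 3.31% of shared peaks in gene bodies (difference interval -0.831 to 0.933 points). The CCAAT box, searched as CCAAT, was slightly less common in members, with 20.7% against 23.1% in gene bodies (difference -2.42 points, -4.41 to -0.390). Between genes it was in 25.4%. Internal and outermost coding starts differed little in it (20.8% and 21.4%, difference -0.689 points, -4.52 to 3.29). All coding gene starts held the YY1 site in 4.66% and the CCAAT box in 25.9%. ETS core and GC box both contain a CG, so they track CpG content, and a match to letters is not a bound site.

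**Figure D3:**
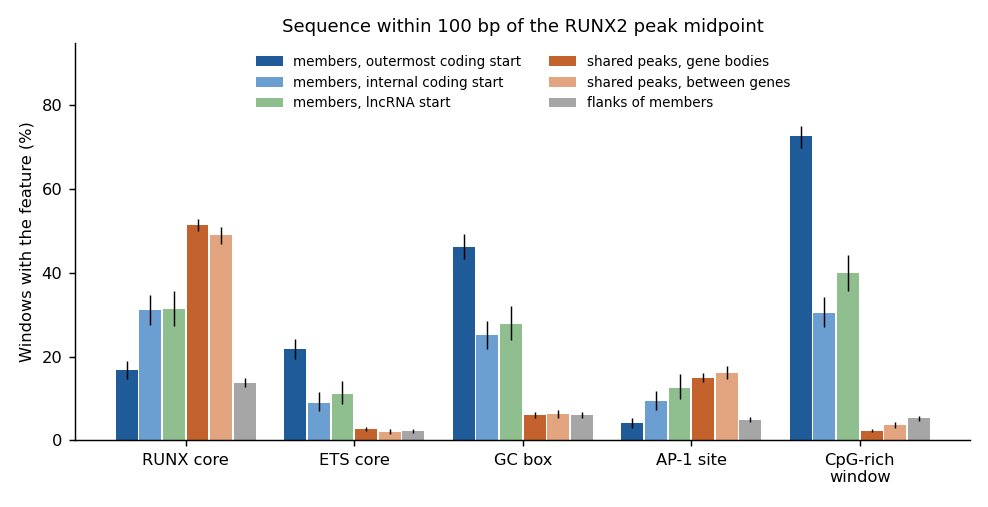
Share of windows (%, y axis) with each motif, or CpG-rich, within 100 bp of the RUNX2 midpoint, for members by kind of start, other shared peaks and the flanks of members. Lines are exact 95% intervals; the RUNX core is at 16.7% in members at outermost coding starts and 51.5% in gene bodies, and CpG-rich windows are at 72.6% and 2.35%.

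The place of the core within the peaks was not symmetric. Within 250 bp of the RUNX2 midpoint, the nearest core was at lower genome coordinates in 721 members and at higher ones in 377, a share of 65.7% (62.8 to 68.5), with a median of -40.5 bp. The shares were 66.4% at plus-strand and 64.8% at minus-strand genes, so the side was that of the chromosome and not of the gene. In shared peaks in gene bodies it was 69.6% (68.1 to 71.1) and between genes 71.0%. About the CBFB midpoint of the members it was 58.9% (55.9 to 62.0). This is the same direction as the strand difference in the offsets. When the RUNX2 midpoints were moved by -45 bp, the median in shared peaks away from starts and a choice made after seeing the data, the core share within 100 bp was 29.4% (27.7 to 31.3) in these 2469 members, 58.7% in gene bodies and 55.8% between genes. The order of the 3 places was kept.

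**Figure D4:**
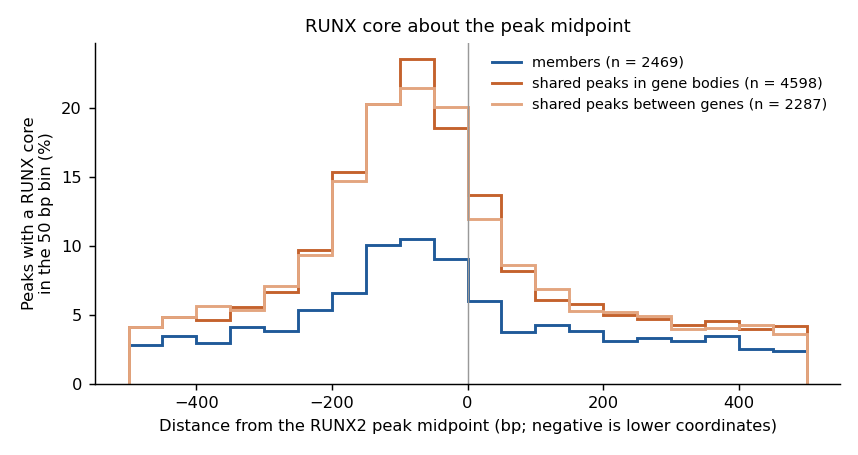
Share of peaks (%, y axis) with a RUNX core in each 50 bp bin from the RUNX2 midpoint (x axis, bp, negative toward lower coordinates), for members and the other shared peaks. All 3 curves are highest from -100 to -50 bp, at 10.5% of members, 23.6% of peaks in gene bodies and 21.5% between genes.

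To see which gene groups had members, 18 lists were counted beside the 10.7% of all coding genes. The lists were chosen with earlier results of these data known, so the counts are a description and no set test was run. Of the 36 osteoblast genes, 6 had a member (16.7%, 6.37 to 32.8). ANKH, a pyrophosphate transporter, had the highest RUNX2 score of them (146.65, CBFB 763.55), followed by TNFRSF11B, the decoy receptor osteoprotegerin (87.85 and 221.72). FGFR2 and ENPP1 completed this group with ALPL and SP7. The interval of this group included the background.

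Replication-dependent histone genes had a member in 22 of 64 cases (34.4%, 22.9 to 47.3), and the median RUNX2 score of the genes was 142. H3C14 had 359.19 and 906.6, and H1-5 had 296.3 and 797.83. Several of these genes shared 1 peak, as H2AC11 and H2BC11 did (258.39 and 383.27). The interval treats each gene as separate, so it may be too narrow. Histone genes of the same type are similar in sequence, so the position of these members may be uncertain too, which was not tested. Cytosolic ribosomal protein genes had a member in 22 of 84 cases (26.2%, 17.2 to 36.9). RPS3A was first (356.78 and 534.88, 26 bp upstream of the nearest annotated start), and RPL18 joined a RUNX2 score of 240.84 to a CBFB score of only 58.22 (percentile 10.1), at a peak whose nearest start was that of SPHK2. Zinc finger genes named ZNF were at the background, with 51 of 508 (10.0%, 7.57 to 13), led by ZNF436 (610.45 and 1808.3) and ZNF302 (353.88 and 788.43). The starts nearest to these peaks were those of ZNF436-AS1 and ENSG00000279329. Proteasome genes had 9 of 48 (18.8%, 8.95 to 32.6), led by PSME2 (98.11 and 417.97, nearest to RNF31) and PSMG1 (96.44 and 357.01).

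Actin cytoskeleton genes had a member in 10 of 35 cases (28.6%, 14.6 to 46.3). CNN3, an actin-binding calponin, had 357.81 and 831.17, and MYL12A, a regulatory myosin light chain, had 277.49 and 1257.96 with its core 52 bp from the midpoint. PDLIM7, a LIM-domain protein of actin bundles, had 144.23 and 502.7, and MYH9, non-muscle myosin heavy chain, had 3 members with a top RUNX2 score of 132.74. Ubiquitin and stress genes had 6 of 17 (35.3%, 14.2 to 61.7): DDIT3 (100.06 and 328.17), HSPA5 (96.69 and 176.59) and HSF2 (92.72 and 256.29) led them. The DDIT3 peak was 799 bp upstream of a DDIT3 start and nearest to MBD6, and the HSPA5 peak was nearest to HSPA5-DT. G1 cell-cycle genes had 7 of 26 (26.9%, 11.6 to 47.8). The cyclin gene CCND3 (119.48 and 399.85) and its kinase gene CDK4 (84.41 and 180.4) had the highest RUNX2 scores, before E2F4 (80.17 and 221.66) and RB1 (58.6 and 200.17).

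Signalling groups had smaller shares, and the intervals of all of them reached the background. SMAD and TGF-beta pathway genes had 5 of 32 (15.6%), with SMAD3 (3 members, top 159.0 and 419.66, 1 bp from an internal start 34916 bp from the gene start), the ligand gene TGFB1 (150.7 and 867.82, nearest to TMEM91), the repressor SKI (143.33 and 234.87) and the co-receptor TGFBR3 (104.31 and 982.68). YAP-TEAD pathway genes had 4 of 26 (15.4%), with the receptor kinase AXL (264.15 and 541.02), VGLL4 (93.44 and 695.88), the secreted CCN1 (88.58 and 356.11) and AMOTL2 (87.75 and 122.27). AP-1 genes had 3 of 18 (16.7%), ATF3 (78.28 and 119.53), MAFK (57.15 and 140.33) and FOS (54.64 and 152.77). In the BCL2 family, BID (122.6 and 537.84) and BBC3 (76.89 and 555.69), both of which promote cell death, were 2 of 16 (12.5%). MYC network genes had 2 of 13 (15.4%), MYC and its antagonist MNT (190.67 and 460.24). COMPASS complex genes, which act in H3K4 methylation, had 2 of 19 (10.5%), PSIP1 (187.12 and 303.7) and KMT2A (135.0 and 218.86).

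Among groups of other tissues, olfactory receptor genes had 0 of 399, which allows a share of up to 0.920%, and liver genes had 0 of 18, which allows up to 18.5% (upper exact limits). Blood cell genes had 1 of 22 (4.55%), CSF1R (108.69 and 578.59), the receptor of macrophage growth factor, with a core 25 bp from the midpoint.

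**Figure D5:**
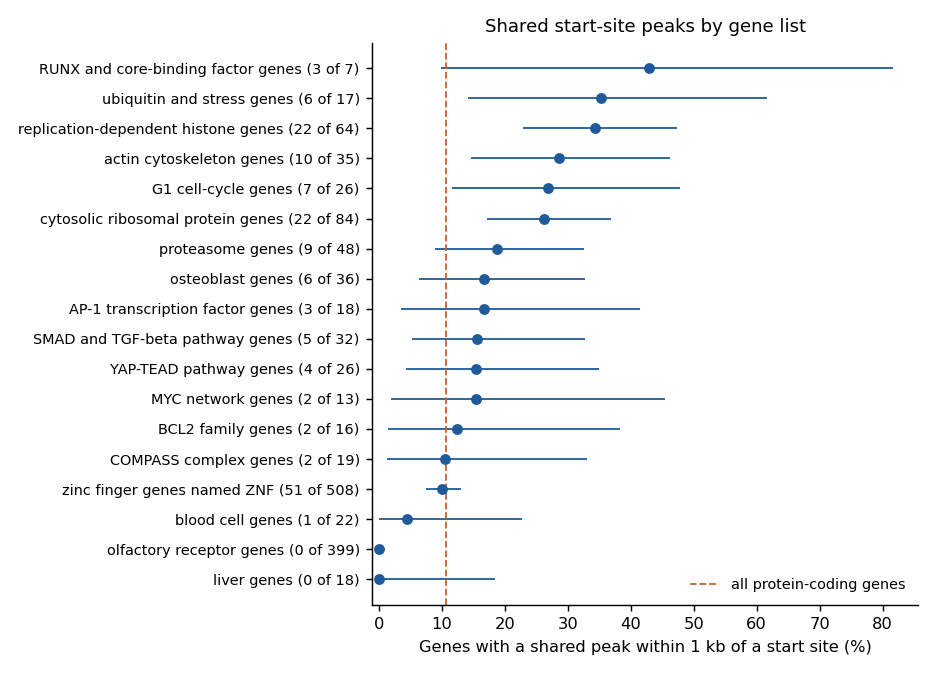
Share of the genes of each list with a shared peak within 1 kb of a start site (%, points) with exact 95% intervals (lines), beside the 10.7% of all protein-coding genes (dashed line). Histone, ribosomal protein, actin, G1 and ubiquitin and stress lists lie to the right of the dashed line with their whole interval, and the olfactory receptor list to the left. The intervals treat each gene as separate, although several histone genes share 1 peak.

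The members were spread unevenly over the chromosomes. Coding genes had a member in 17.8% (16.2 to 19.5) on chromosome 1 and 16.4% (14.2 to 18.8) on chromosome 6, but in 3.76% (1.82 to 6.80) on chromosome 18 and 2.88% (1.87 to 4.22) on chromosome X. Chromosome 1 held 420 members and chromosome 18 held 13. Of the shared peaks on chromosome 19, 47.9% (42.0 to 53.9) were at start sites, the largest share of any chromosome, and on chromosome 13 it was 17.9%.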

How the data were processed

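ChIP-seq peak lists of RUNX2 and CBFB from SAOS2 cells were used, 1 library per antibody. The score deposited by the authors ran from 50 to 3100 and was read as the peak score of MACS 1.4.1, a tool named with CASAVA 1.8.2 and hg19 in the submitters' processing notes. The aligner, the calling limit, the use of Input and the depth are not given in the sources used here. RUNX2 peaks that shared at least 1 bp with a CBFB peak were each given the best-scoring CBFB peak among those they touched as partner. Midpoints were set against every transcript start of GENCODE release 44 lifted to GRCh37, with a reach of 1 kb. Ties went to protein-coding genes. Motifs were searched within 100 bp of the midpoint on both strands. Members, lists and named genes were chosen with earlier results of these data known. Named were the top members by RUNX2 or CBFB score at coding and non-coding genes, the top genes of each list, those at the 1 kb limit, and RUNX2, CBFB, SP7, ALPL and MYC. CCNI, PPFIBP2, PRR5L, LRRC71 and PRCC were named for their sequences. Steps were tested on simulated peaks and recovered what was planted. Python 3.11.15, numpy 2.4.6, pandas 2.3.3 and scipy 1.17.1 were used. Some members that the rule names are not reported here.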

Additional observations from a re-analysis of the deposited data

How the results depend on the processing

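No paired analysis was possible because the design holds 1 RUNX2 and 1 CBFB library, so none could be left out either. Of 58 values recomputed, 36 stayed within the counting interval of the reported value or within 1.5 times the reported count. The number of members was 4263 with a reach of 5 kb and 941 with scores of 100 or more in both lists, where 826 coding genes had a member. The share of shared peaks at starts was 25% with at least 50% of each of both peaks shared, 21.5% with a reach of 500 bp, 32.5% with 2 kb and 45.6% with 5 kb. It was 21.0% with coding starts only and 19.2% with outermost starts only. The upstream share was 56.4% with coding starts only and fell to the other side of 50% with outermost starts only (45.4%) and with the CBFB midpoint (49.4%). The rank correlation of the scores was 0.591 with at least 50% of each of both peaks shared and 0.421 with scores of 100 or more. The core share was 22.1% with a reach of 500 bp from the start, 29.2% with 2 kb and 21.7% with coding starts only. It was 13.6% within 50 bp, 58.8% in the whole peak, 12.6% for TGTGGTT, 57.8% for TGNGGT, and 29.6% with midpoints moved by -45 bp before members were found, a choice made after seeing the data. A setting with several of these choices changed at once was not run. The depth is unknown, so weak peaks could not be judged against it.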
